A study of Homo sapiens with 9 samples.

Results

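The genes described here are the core splicing factors and heterogeneous nuclear ribonucleoproteins (hnRNPs). They were taken from a table of 27800 gene symbols by the start of the symbol: SRSF, HNRNP, SF3A or SF3B, U2AF, SNRP, PRPF, and LSM followed by a digit, with SNRPN left out. This rule found 93 members: 30 HNRNP, 13 LSM, 13 PRPF, 12 SNRP, 12 SRSF, 9 SF3A or SF3B and 4 U2AF symbols. Their RNA was measured by sequencing of total RNA from Huh7, an established human hepatocellular carcinoma line grown in DMEM with 10% FBS. There were 3 libraries from vehicle-treated cells, 3 from cells given 5 uM FIDAS-5 for 48 h and 3 from cells given 0.5 uM JQ1 for 48 h. FIDAS-5 inhibits MAT2A, the enzyme that makes S-adenosylmethionine in most dividing cells, and JQ1 keeps BET bromodomain proteins, readers of acetylated histones, from binding chromatin. The labels give each compound at 1 dose and do not name the vehicle or its duration. They do not say whether libraries of a group are separate cultures, so the p-values reflect the spread of these libraries alone, which can be technical. Values are TPM, which are scaled by transcript length and may be compared between genes. The depth behind each value is unknown, since TPM holds no counts.

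Introns are removed by the spliceosome, which is built from small nuclear ribonucleoprotein particles (snRNPs). Each snRNP carries an RNA and a ring of Sm proteins, or for the U6 RNA a ring of LSM proteins, and the SNRP genes encode the Sm proteins and some proteins specific to the U1 and U2 particles. U2AF binds the 3′ end of the intron, SF3A and SF3B belong to the U2 snRNP that recognises the branch point, and the PRPF proteins serve mostly in the particles and complexes that complete and activate the machine. SR proteins, the SRSF genes, mainly favour the use of exons they bind, and hnRNPs coat nascent transcripts and often oppose exon use. Members of the SR and hnRNP families limit their own level through splice forms that are degraded, which a table of gene totals does not separate. Some Sm proteins and LSM4 end in arginine-glycine tails that PRMT5 methylates with S-adenosylmethionine, the product of MAT2A.

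Of the 93 members, 82 reached 1 TPM in at least 3 of the 9 libraries and were tested, among 13573 genes tested in all. Changes are given in brackets as differences of log2(TPM + 1) between group means, with the SE of the fit and the adjusted p. This scale understates the change of genes at a few TPM. A gene was called when the limma test had a Benjamini-Hochberg adjusted p under 0.05 over all tested genes. Of the 9 hepatocyte and hepatoma markers, ALB, AFP, APOA1 and SERPINA1 were lowest at 216 TPM (APOA1 in vehicle) over all libraries. With FIDAS-5 APOA1 and TTR rose, and with JQ1 7 rose and TTR fell (-1.73, adjusted p = 1.64e-05). The 9 genes summed to 4819 to 5795 TPM in vehicle, 3848 to 5903 under FIDAS-5 and 8788 to 13137 under JQ1, and their part in the members' results was not tested. The leukocyte markers PTPRC and CD3E were under 1 TPM, KRT7 was at 0 in every library and VWF reached at most 0.0094 TPM. Of 5 leukocyte, 5 fibroblast or endothelial and 4 cholangiocyte markers, 3, 2 and 2 were high enough to test. With FIDAS-5 LYZ, CD68, PECAM1 and MUC1 rose, and with JQ1 the same 4 genes fell and COL1A2 rose; their part in the results was not tested. The leukocyte markers, nearly all LYZ, summed to 109 to 132 TPM in vehicle, 238 to 293 TPM with FIDAS-5 and 14.1 to 20 TPM with JQ1, and the fibroblast and endothelial markers to 8.51 to 11.1, 16.8 to 18.4 and 2.78 to 3.3 TPM. The cholangiocyte markers summed to 19.5 to 26.1, 15.2 to 25.3 and 26.5 to 39.4 TPM. Of 10 proliferation markers 9 fell with FIDAS-5 and 6 with JQ1, and none rose, also at an unadjusted limma p under 0.05. Their sum was 605 to 625 TPM in vehicle, 205 to 263 with FIDAS-5 and 284 to 418 with JQ1, and its part in the members' results was not tested. Libraries also differed from their group means along transcript GC content, over 12925 genes that are not independent. Spearman correlations with GC were 0.56 and 0.64 for the libraries numbered 3 of FIDAS-5 and JQ1. For the libraries numbered 1 they were -0.51 and -0.65. Between 27.6 and 34% of a library's TPM lay in protein-coding genes.

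Promoter sequences are shown for 6 members that carried the contrasts described below, chosen after their values were seen. SRSF1, HNRNPC and LSM3 had among the largest falls with both compounds, SNRPC and SNRPB fell with JQ1, and LSM10 lay on opposite sides of vehicle with the 2 compounds. Each line gives the 250 bases before the start of the gene from RefSeq (GRCh38.p14), 5′ to 3′ on the strand of the gene. Capitals mark CCGGAAG, a site of ETS factors, and CCAAT, a site of NF-Y, on either strand. The windows are SRSF1 chr17:58007247-58007496 on the minus strand, HNRNPC chr14:21269443-21269692 on the minus strand, LSM3 chr3:14178567-14178816 on the plus strand, SNRPC chr6:34757255-34757504 on the plus strand, SNRPB chr20:2470790-2471039 on the minus strand and LSM10 chr1:36397909-36398158 on the minus strand.
SRSF1: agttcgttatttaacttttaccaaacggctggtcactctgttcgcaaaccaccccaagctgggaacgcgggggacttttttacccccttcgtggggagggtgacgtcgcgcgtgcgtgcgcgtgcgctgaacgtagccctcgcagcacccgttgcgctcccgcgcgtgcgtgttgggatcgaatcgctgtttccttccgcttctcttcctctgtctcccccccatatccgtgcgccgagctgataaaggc
HNRNPC: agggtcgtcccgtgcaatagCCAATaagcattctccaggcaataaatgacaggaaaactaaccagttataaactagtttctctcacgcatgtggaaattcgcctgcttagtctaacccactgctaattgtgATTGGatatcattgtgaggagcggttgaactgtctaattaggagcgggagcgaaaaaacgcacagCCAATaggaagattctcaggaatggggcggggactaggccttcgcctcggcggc
LSM3: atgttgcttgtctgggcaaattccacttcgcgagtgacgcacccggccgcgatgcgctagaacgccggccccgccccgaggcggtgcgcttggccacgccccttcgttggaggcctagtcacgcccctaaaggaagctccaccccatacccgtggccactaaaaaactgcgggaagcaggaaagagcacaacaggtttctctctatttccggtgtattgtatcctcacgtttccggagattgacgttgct
SNRPC: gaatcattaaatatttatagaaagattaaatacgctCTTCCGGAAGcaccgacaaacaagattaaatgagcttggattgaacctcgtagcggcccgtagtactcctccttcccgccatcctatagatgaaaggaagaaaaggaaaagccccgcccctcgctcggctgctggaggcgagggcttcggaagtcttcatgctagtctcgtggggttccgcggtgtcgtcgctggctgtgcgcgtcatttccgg
SNRPB: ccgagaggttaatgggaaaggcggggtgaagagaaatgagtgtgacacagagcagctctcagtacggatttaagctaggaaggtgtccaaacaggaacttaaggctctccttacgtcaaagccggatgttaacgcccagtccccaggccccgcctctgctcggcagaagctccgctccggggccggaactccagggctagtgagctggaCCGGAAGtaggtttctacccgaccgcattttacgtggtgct
LSM10: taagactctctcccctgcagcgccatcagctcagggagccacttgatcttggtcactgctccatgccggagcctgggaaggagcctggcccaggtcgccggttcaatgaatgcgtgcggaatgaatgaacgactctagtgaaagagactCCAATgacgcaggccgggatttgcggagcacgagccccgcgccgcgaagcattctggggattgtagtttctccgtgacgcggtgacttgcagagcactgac
The windows differ in these letters: HNRNPC holds 3 CCAAT motifs, LSM10 holds 1, SNRPB holds 1 CCGGAAG, SNRPC holds an overlapping pair of CCGGAAG motifs on the 2 strands, and SRSF1 and LSM3 hold neither motif.

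Transcripts of the splicing machinery were mostly lower with either compound. With FIDAS-5, 14 of the 82 tested members fell and none rose by limma (1 was higher at an unadjusted p under 0.05, LSM10), and with JQ1 22 fell and LSM14B alone rose. The falls with FIDAS-5 took in the SR proteins SRSF1 to SRSF4 and the hnRNPs HNRNPA1, HNRNPC and HNRNPD, and with JQ1 they reached 6 SNRP genes and both main subunits of U2AF. As a share of members tested, 17.1% fell with FIDAS-5, where 7.6% of all tested genes fell and 12.6% rose. With JQ1 26.8% of the members fell, where 19.4% of all tested genes fell and 19% rose. The median log2 fold change of the members was -0.41 with FIDAS-5 and -0.43 with JQ1, and that of all tested genes -0.02 and -0.01. Without JQ1 replicate 3 the JQ1 medians were -0.25 over the members and 0.11 over all tested genes. Values were below 0 for 72 members with FIDAS-5 and for 65 with JQ1. Of the 13573 tested genes, 7060 and 6861 had values below 0. In a population of cells, less RNA per cell and fewer cells with much of that RNA cannot be told apart, and both comparisons use the same vehicle libraries.

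Libraries did not overlap between FIDAS-5 and vehicle, with FIDAS-5 lower, for 43 of the 82 members (18.4% of all tested genes) and with FIDAS-5 higher for 1 (20.9%), which was LSM10. Between JQ1 and vehicle the libraries did not overlap for 37 members with JQ1 lower (26.2% of all tested genes) and for 3 with JQ1 higher (24.5%), HNRNPA1P10, HNRNPUL2 and LSM14B. Summed over the 93 members, TPM was 4248 ± 278 in vehicle (SD, n = 3), 2957 ± 306 with FIDAS-5 and 2918 ± 519 with JQ1. As a share of the TPM of protein-coding genes the sum was 1.37 ± 0.0480%, 0.986 ± 0.0168% and 0.916 ± 0.0660%, and no vehicle library overlapped a treated one on either measure. Of the families, HNRNP made up the largest part, with 1504 ± 96.6 TPM in vehicle, 943 ± 130.3 under FIDAS-5 and 1061 ± 245 under JQ1.

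**Figure D1:**
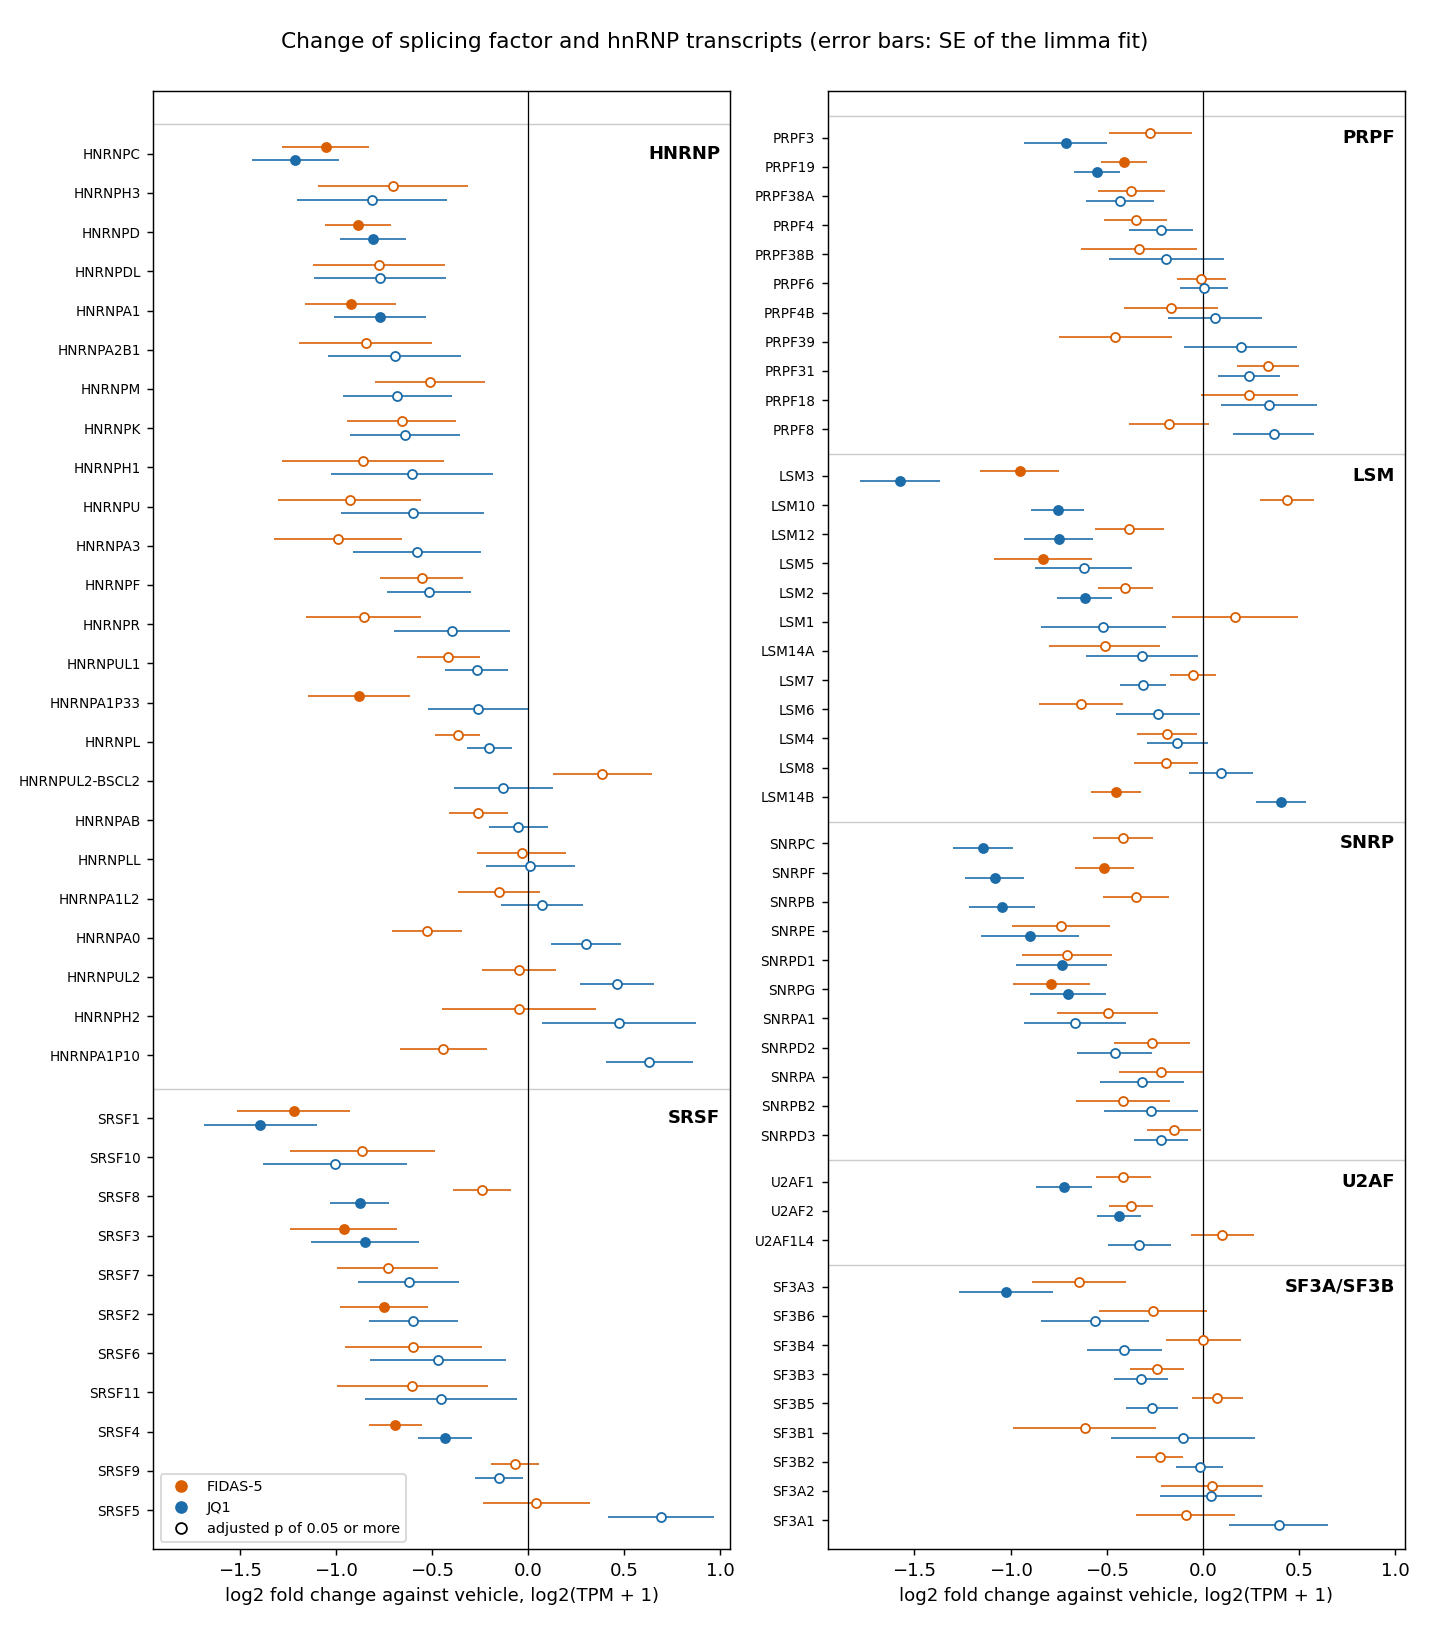
Log2 fold change (log2(TPM + 1), x axis) against vehicle of 81 of the 82 tested members (y axis, by family), with the SE of the limma fit as error bars, for FIDAS-5 (orange) and JQ1 (blue); filled points are called at an adjusted p under 0.05. Most points lie left of 0, with 71 below 0 for FIDAS-5 and 64 for JQ1, and the only filled point right of 0 belongs to LSM14B with JQ1.

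The counts depended on the libraries used. With FIDAS-5, omitting vehicle replicates 1, 2 and 3 in turn left 10, 6 and 4 members that fell (6.87, 5.42 and 4.15% of all tested genes). Omitting FIDAS-5 replicates 1, 2 and 3 left 6, 5 and 2 (6.62, 4.53 and 3.86% of all tested genes). Omitting JQ1 replicates 1 and 2 left 12 and 8 (7.31 and 6.03% of all tested genes). Omitting JQ1 replicate 3, which enters through the shared estimate of the spread, gave 29 (10.9% of all tested genes). With JQ1 the number that fell was 16 to 26 with any library left out. The 16 came without JQ1 replicate 3 and the 26 without JQ1 replicate 1, where 18.9% of all tested genes fell. The number that rose was 0 to 5, the 5 without JQ1 replicate 3, where 22.2% of all tested genes rose and 16.5% fell. Without both libraries numbered 3, a choice made after seeing the data, 16 members fell with FIDAS-5 and none rose, where 6.75% of all tested genes fell and 10.3% rose. With JQ1 18 members then fell and 6 rose (7.32% of the members), where 17.3% of all tested genes fell and 23.5% rose. With the GC trend of each library removed, 31 fell and 1 rose with FIDAS-5, and 42 fell and 6 rose with JQ1, where 15.5% and 27.6% of all tested genes fell and 18.4% and 26.5% rose.

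Among the SR proteins, 4 of 11 tested members fell with FIDAS-5 (SRSF1, SRSF2, SRSF3 and SRSF4) and 4 fell with JQ1 (SRSF1, SRSF3, SRSF4 and SRSF8). These are 36.4% in each comparison, where 7.6% and 19.4% of all tested genes fell. The SRSF medians were -0.69 and -0.60, the latter -0.32 without JQ1 replicate 3. SRSF1, the best known SR protein and an activator of exon inclusion (chromosome 17, 57989038 to 58007246), was at 95, 109.7 and 97.1 TPM in vehicle, 56.4, 43.2 and 31.6 under FIDAS-5 and 52.3, 42.6 and 23.7 under JQ1. Every treated library lay below every vehicle library, the lowest being the libraries numbered 3. The change was the largest of the 82 members with FIDAS-5 (-1.22, SE 0.29, adjusted p = 0.0192) and the second largest fall with JQ1 (-1.39, SE 0.29, adjusted p = 0.00574). The FIDAS-5 call of SRSF1 was lost on omitting replicate 2 or 3 of vehicle or replicate 2 or 3 of FIDAS-5 (adjusted p = 0.0577 to 0.0746).

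SRSF3, a small SR protein that also acts in mRNA export (chromosome 6, 36594362 to 36605600), was at 63.8, 83.5 and 76.2 TPM in vehicle, 45.2, 39.7 and 29.5 under FIDAS-5 and 53.5, 49.2 and 25.5 under JQ1. Neither treated group overlapped vehicle, and FIDAS-5 and JQ1 overlapped each other. It fell with FIDAS-5 (-0.96, SE 0.28, adjusted p = 0.0416) and with JQ1 (-0.85, SE 0.28, adjusted p = 0.0405). Both calls lay near the threshold. That with FIDAS-5 was lost on omitting any vehicle library, any FIDAS-5 library or replicate 2 of JQ1 (adjusted p = 0.0536 to 0.144). A further loss came with a pseudocount of 0.1 or with no filter (adjusted p = 0.0532 to 0.0809). That with JQ1 was lost on omitting any vehicle library, replicate 2 of FIDAS-5 or replicate 2 or 3 of JQ1 (adjusted p = 0.0511 to 0.118). It also missed the threshold with a pseudocount of 0.1, with no filter or in a fit of only the 6 libraries compared (adjusted p = 0.0506 to 0.0777). Without JQ1 replicate 3 the JQ1 change of SRSF3 was -0.52. SRSF4, one of the longer SR proteins (chromosome 1, 29147743 to 29181900), was at 16.8, 16.4 and 15.4 TPM in vehicle, 10.6, 8.51 and 9.96 under FIDAS-5 and 13.5, 11.9 and 10.1 under JQ1. Its vehicle libraries lay close together and above all treated ones, and it fell with FIDAS-5 (-0.69, SE 0.14, adjusted p = 0.00856) and with JQ1 (-0.43, SE 0.14, adjusted p = 0.0360). The call with FIDAS-5 held with any library left out and in each alternative run. The call with JQ1 was lost on omitting any vehicle library, replicate 3 of FIDAS-5 or replicate 2 or 3 of JQ1 (adjusted p = 0.0565 to 0.0970). In a fit of only the 6 libraries compared or without both libraries numbered 3, it was lost too (adjusted p = 0.0601 to 0.115).

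SRSF2, an SR protein mutated in some leukaemias and the most abundant of the family in vehicle by TPM, was at 129, 139 and 135 TPM in vehicle, 92.5, 81.7 and 66.4 under FIDAS-5 and 109, 105 and 60.3 under JQ1. All treated libraries were below vehicle, with a call for FIDAS-5 (-0.75, SE 0.23, adjusted p = 0.0494) and none for JQ1 (-0.60, adjusted p = 0.0692). The FIDAS-5 call was lost on omitting any vehicle library, any FIDAS-5 library or replicate 2 of JQ1 (adjusted p = 0.0618 to 0.169). A further loss came with a pseudocount of 0.1 or with no filter (adjusted p = 0.0633 to 0.0841). SRSF8, a close relative of SRSF2 at a low level, was at 2.30, 3.01 and 2.83 TPM in vehicle, 2.55, 1.97 and 1.92 under FIDAS-5 and 1.37, 0.933 and 0.790 under JQ1. The JQ1 libraries alone stood apart, below all others (-0.88, SE 0.15, adjusted p = 0.00224), and FIDAS-5 overlapped vehicle (-0.24, adjusted p = 0.309).

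The other SR proteins were not called with either compound. SRSF9, a small SR protein, was at 63.4, 76.2 and 63.8 TPM in vehicle, 66.4, 62.2 and 64.7 under FIDAS-5 and 66.2, 61.1 and 55.4 under JQ1. All groups overlapped (-0.07, adjusted p = 0.751 with FIDAS-5, and -0.15, adjusted p = 0.379 with JQ1). SRSF5, the one SR gene with a positive value for both compounds, was at 8.52, 15.5 and 13.3 TPM in vehicle, 13.4, 13.4 and 10.8 under FIDAS-5 and 25.8, 23.9 and 13.2 under JQ1. Its JQ1 libraries numbered 1 and 2 were above all vehicle libraries and the library numbered 3 within them (0.69, adjusted p = 0.0794). SRSF6, SRSF7, SRSF10 and SRSF11 had values between -0.86 and -0.60 with FIDAS-5 and between -1.01 and -0.45 with JQ1, none called. SRSF10, a splicing repressor when dephosphorylated, was at 24.4, 24.7 and 23.9 TPM in vehicle, 17.9, 14.9 and 7.97 under FIDAS-5 and 16.3, 15.7 and 5.94 under JQ1. The JQ1 library numbered 3 and the FIDAS-5 library numbered 3 were far below their groups, and the adjusted p was 0.146 and 0.0632.

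**Figure D2:**
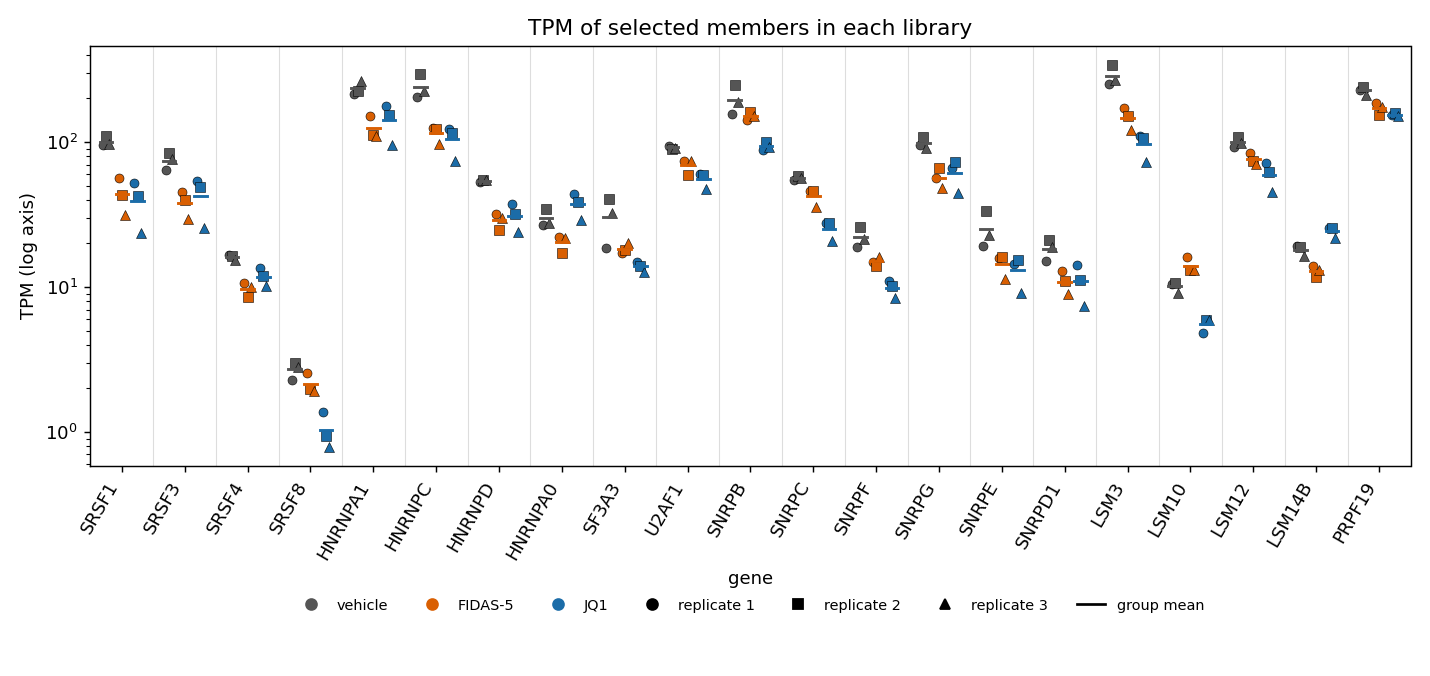
TPM (log axis) of selected members in each of the 9 libraries, by group (colour) and replicate number (marker), with a line at the group mean. The treated libraries of SRSF1, HNRNPC, HNRNPD and LSM3 all lie below vehicle, LSM10 lies above vehicle with FIDAS-5 and below it with JQ1, and the libraries numbered 3 are often the lowest of the treated groups.

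Of the 24 tested hnRNP symbols, 4 fell with FIDAS-5 and 3 with JQ1. The share of the family that fell with FIDAS-5 was above the 7.6% of all tested genes. With JQ1 the share that fell was below the 19.4% of all tested genes. The hnRNP medians were -0.61 and -0.46, with values below 0 for 23 and 18 symbols. The JQ1 median was -0.17 without JQ1 replicate 3. HNRNPC, which forms a particle that binds uridine tracts of nascent transcripts (chromosome 14, 21209147 to 21269442), was at 205, 293 and 226 TPM in vehicle, 126, 124 and 96.6 under FIDAS-5 and 124, 116 and 74.5 under JQ1. The highest treated library was at 126 TPM and the lowest vehicle library at 205 TPM. It fell with FIDAS-5 (-1.05, SE 0.23, adjusted p = 0.0116) and with JQ1 (-1.21, SE 0.23, adjusted p = 0.00313). The FIDAS-5 call of HNRNPC was lost on omitting replicate 3 of FIDAS-5 (adjusted p = 0.0514). HNRNPD, also called AUF1, a binder of AU-rich elements (chromosome 4, 82352498 to 82373991), was at 52.9, 54.5 and 54.7 TPM in vehicle, 31.7, 24.9 and 30.0 under FIDAS-5 and 37.2, 31.8 and 23.8 under JQ1. The 3 vehicle libraries were within 2 TPM of each other and above all 6 treated ones. HNRNPD fell with FIDAS-5 (-0.89, SE 0.17, adjusted p = 0.00745) and with JQ1 (-0.81, SE 0.17, adjusted p = 0.00608), calls that held with any library left out and in each alternative run.

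HNRNPA1, an abundant repressor of exon use (chromosome 12, 54280726 to 54287087), was at 216, 225 and 266 TPM in vehicle, 152, 111 and 110.4 under FIDAS-5 and 176, 154 and 94.7 under JQ1. No treated library reached the vehicle range, and the lowest value was that of JQ1 replicate 3. It fell with FIDAS-5 (-0.92, SE 0.24, adjusted p = 0.0256) and with JQ1 (-0.77, SE 0.24, adjusted p = 0.0311). The FIDAS-5 call of HNRNPA1 was lost on omitting replicate 2 or 3 of vehicle or replicate 2 or 3 of FIDAS-5 (adjusted p = 0.0603 to 0.0950). Its JQ1 call was lost on omitting replicate 2 or 3 of vehicle or replicate 2 or 3 of JQ1 (adjusted p = 0.0524 to 0.103). It also missed the threshold with no filter, in a fit of only the 6 libraries compared or without both libraries numbered 3 (adjusted p = 0.0521 to 0.0583). The JQ1 change of HNRNPA1 was -0.51 without JQ1 replicate 3. HNRNPA1 has many near-identical copies, and the split of reads between it and HNRNPA1L2, HNRNPA1P10 and HNRNPA1P33 is uncertain. The pseudogene HNRNPA1P33, at 3.90, 2.10 and 1.71 TPM in vehicle, 1.01, 0.754 and 0.877 under FIDAS-5 and 1.89, 2.91 and 1.14 under JQ1, was called lower with FIDAS-5 (-0.88, SE 0.26, adjusted p = 0.0465). That call was lost on omitting any vehicle library, any FIDAS-5 library or replicate 1 of JQ1 (adjusted p = 0.0504 to 0.127). With no filter or without both libraries numbered 3, it was lost too (adjusted p = 0.0559 to 0.0862).

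The most abundant hnRNP in vehicle was HNRNPL, which binds CA repeats, at 276, 299 and 265 TPM in vehicle, 235, 199 and 218 under FIDAS-5 and 245, 248 and 236 under JQ1. Both treated groups lay wholly below vehicle by a small amount, and neither comparison was called (-0.37, adjusted p = 0.0565 with FIDAS-5, and -0.20, adjusted p = 0.205 with JQ1). Several abundant hnRNPs had their lowest values in the libraries numbered 3. HNRNPA2B1, a relative of HNRNPA1, was at 39.5, 53.0 and 54.4 TPM in vehicle, 35.5, 25.8 and 20.3 under FIDAS-5 and 41.9, 37.7 and 16.2 under JQ1. HNRNPU, a nuclear scaffold protein, was at 54.3, 61.0 and 59.8 TPM in vehicle, 44.0, 29.1 and 21.3 under FIDAS-5 and 56.9, 47.5 and 20.3 under JQ1. FIDAS-5 lay below vehicle for both genes, JQ1 overlapped vehicle for both, and no call was made (adjusted p = 0.124 and 0.117 with FIDAS-5). With the GC trend removed both were called lower with FIDAS-5 (HNRNPA2B1 -0.60, adjusted p = 0.0196, and HNRNPU -0.69, adjusted p = 0.0147). HNRNPH1, a binder of guanine tracts, ranged in the JQ1 group from 23.6 to 74.0 TPM, and HNRNPK, a binder of cytosine-rich RNA, from 61.0 to 131 TPM, and neither was called. HNRNPLL and HNRNPUL2 had values of -0.03 and -0.05 with FIDAS-5 and of 0.01 and 0.46 with JQ1, none called.

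U2AF is the dimer that marks the 3′ end of introns. Of 3 tested U2AF genes 2 fell with JQ1 (66.7%, where 19.4% of all tested genes fell). None fell with FIDAS-5 by limma (2 were lower at an unadjusted p under 0.05), where 7.6% of all tested genes fell. No U2AF gene was called between the compounds. U2AF1, which reads the terminal AG (chromosome 21, 43092956 to 43107578), was at 94.5, 89.9 and 91.3 TPM in vehicle, 73.8, 59.2 and 74.3 under FIDAS-5 and 60.7, 59.0 and 47.3 under JQ1. All treated libraries were below vehicle, with a call for JQ1 (-0.72, SE 0.14, adjusted p = 0.00442) and none for FIDAS-5 (-0.41, adjusted p = 0.0781). Reads of U2AF1 may be split with the near-identical U2AF1L5, listed at 0.0702 to 0.687 TPM. U2AF2, which binds the polypyrimidine tract (chromosome 19, 55655035 to 55674716), was at 47.2, 47.3 and 40.4 TPM in vehicle, 36.1, 32.9 and 34.4 under FIDAS-5 and 33.6, 33.3 and 32.0 under JQ1. Its groups did not overlap vehicle either, with a call for JQ1 (-0.43, SE 0.12, adjusted p = 0.0163) and an adjusted p just over the threshold for FIDAS-5 (-0.37, adjusted p = 0.0510). The call of U2AF2 was lost on omitting replicate 2 of JQ1 (adjusted p = 0.0550). A further loss came without both libraries numbered 3 (adjusted p = 0.0515). U2AF1L4, a shorter relative of U2AF1, was at 3.61 to 5.40 TPM in vehicle and not called with FIDAS-5 (0.10) or JQ1 (-0.33).

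SF3A and SF3B hold the U2 snRNP at the branch point. Of their 9 tested genes none fell with FIDAS-5 by limma (1 was lower at an unadjusted p under 0.05), where 7.6% of all tested genes fell. SF3A3 alone fell with JQ1 (11.1%, where 19.4% of all tested genes fell). The medians of the family were -0.22 (-0.12 without FIDAS-5 replicate 2) and -0.26. SF3A3 (chromosome 1, 37956975 to 37990022) was at 18.7, 40.8 and 32.4 TPM in vehicle, 17.1, 17.9 and 20.1 under FIDAS-5 and 14.9, 14.1 and 12.7 under JQ1. The vehicle libraries were spread widely, and the JQ1 libraries were close together below them (-1.02, SE 0.25, adjusted p = 0.0105), while FIDAS-5 overlapped vehicle (-0.64, adjusted p = 0.102). SF3B1, the largest subunit, which contacts the branch point and is often mutated in blood cancers, was at 40.5, 50.9 and 52.9 TPM in vehicle, 45.1, 31.3 and 20.7 under FIDAS-5 and 62.0, 57.1 and 24.6 under JQ1. Both treated groups overlapped vehicle, with the libraries numbered 3 low in each (-0.61, adjusted p = 0.286 with FIDAS-5, and -0.10, adjusted p = 0.851 with JQ1). SF3B5, the most abundant of the family, was at 98.4, 129 and 105 TPM in vehicle, 121, 118 and 110.0 under FIDAS-5 and 88.9, 98.2 and 87.9 under JQ1. JQ1 was just below vehicle (-0.26, adjusted p = 0.151) and FIDAS-5 lay within it (0.08, adjusted p = 0.731). The least abundant in vehicle was SF3A2, whose vehicle libraries at 32.2, 13.9 and 27.5 TPM spanned all treated ones.

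The Sm proteins and other SNRP products were the family with the lowest median with JQ1 (-0.70), and 6 of 11 fell. By library, the SNRP medians of JQ1 replicates 1, 2 and 3 lay at -0.48, -0.44 and -1.12 from the vehicle mean, and those of U2AF at -0.41, -0.42 and -0.47. With the GC trend removed the U2AF median was lower (-0.62, and -0.54 for SNRP). With FIDAS-5 2 of the 11 fell and the median was -0.41. These falls are 54.5% of the family with JQ1 and 18.2% with FIDAS-5, where 19.4% and 7.6% of all tested genes fell. All 11 values were below 0 in both comparisons. SNRPB, which encodes Sm B and its longer form and is the most abundant SNRP transcript in vehicle (chromosome 20, 2461642 to 2470789), was at 155, 247 and 188 TPM in vehicle, 141, 162 and 152 under FIDAS-5 and 87.5, 99.4 and 93.0 under JQ1. JQ1 libraries were all under 100 TPM and below the other 6, and FIDAS-5 overlapped vehicle. It fell with JQ1 (-1.04, SE 0.17, adjusted p = 0.00168) and was not called with FIDAS-5 (-0.35, adjusted p = 0.194). SNRPC, the U1 protein that helps to read the 5′ splice site (chromosome 6, 34757505 to 34773857), was at 54.5, 58.6 and 56.7 TPM in vehicle, 45.9, 45.9 and 35.7 under FIDAS-5 and 27.5, 27.4 and 20.8 under JQ1. The 3 groups formed steps without overlap, from vehicle through FIDAS-5 to JQ1, with a call for JQ1 (-1.14, SE 0.16, adjusted p = 6.33e-04) and none for FIDAS-5 (-0.41, adjusted p = 0.0969).

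SNRPF and SNRPG, partners in the Sm ring, fell with both compounds. SNRPF (chromosome 12, 95858952 to 95866140) was at 18.9, 25.8 and 21.4 TPM in vehicle, 14.9, 14.1 and 16.2 under FIDAS-5 and 10.9, 10.2 and 8.40 under JQ1. The groups again formed steps without overlap (-0.51, SE 0.15, adjusted p = 0.0449 with FIDAS-5, and -1.08, SE 0.15, adjusted p = 7.56e-04 with JQ1). Its FIDAS-5 call was lost on omitting replicate 2 or 3 of vehicle, any FIDAS-5 library or replicate 1 or 2 of JQ1 (adjusted p = 0.0566 to 0.125). It also missed the threshold with a pseudocount of 0.1, in a fit of only the 6 libraries compared, with the replicate block, with the GC trend removed, with the block and the GC trend removed or without both libraries numbered 3 (adjusted p = 0.0522 to 0.350). SNRPG (chromosome 2, 70281362 to 70293740) was at 95.7, 109 and 90.9 TPM in vehicle, 56.7, 65.9 and 48.3 under FIDAS-5 and 66.7, 72.4 and 44.8 under JQ1. Here the treated groups overlapped each other and both lay below vehicle (-0.79, SE 0.20, adjusted p = 0.0240 with FIDAS-5, and -0.70, SE 0.20, adjusted p = 0.0221 with JQ1). Its FIDAS-5 call was lost on omitting replicate 2 or 3 of vehicle or replicate 1 or 3 of FIDAS-5 (adjusted p = 0.0572 to 0.0954). The JQ1 call of SNRPG was lost on omitting replicate 2 of vehicle (adjusted p = 0.0709).

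SNRPE, also in the ring, was at 19.3, 33.5 and 22.9 TPM in vehicle, 15.9, 16.2 and 11.4 under FIDAS-5 and 14.5, 15.4 and 9.15 under JQ1. All treated libraries were below vehicle, and JQ1 was called (-0.90, SE 0.26, adjusted p = 0.0217). This call was lost on omitting replicate 2 of vehicle or replicate 3 of JQ1 (adjusted p = 0.0525 to 0.0711). Of the 4 transcripts of proteins with arginine-glycine tails, SNRPB, SNRPD1, SNRPD3 and LSM4, the first 2 fell with JQ1 and none was called with FIDAS-5. SNRPD1, at 15.1, 21.2 and 19.0 TPM in vehicle, 12.9, 10.9 and 8.89 under FIDAS-5 and 14.2, 11.1 and 7.40 under JQ1, fell with JQ1 (-0.73, SE 0.24, adjusted p = 0.0363) and was not called with FIDAS-5 (-0.71, adjusted p = 0.0669). The JQ1 call of SNRPD1 was lost on omitting replicate 2 or 3 of vehicle, replicate 2 of FIDAS-5 or replicate 2 or 3 of JQ1 (adjusted p = 0.0565 to 0.113). With no filter, in a fit of only the 6 libraries compared or without both libraries numbered 3, it was lost too (adjusted p = 0.0603 to 0.0660). SNRPD3 was at 20.4, 21.9 and 20.9 TPM in vehicle, 20.5, 17.3 and 19.1 under FIDAS-5 and 20.5, 18.8 and 15.0 under JQ1. LSM4 was at 28.1, 42.1 and 34.6 TPM in vehicle, 30.5, 28.6 and 31.4 under FIDAS-5 and 33.1, 32.6 and 28.6 under JQ1, and both genes overlapped vehicle with both compounds. For SNRPD3 the values were -0.15 with FIDAS-5 and -0.22 with JQ1 (adjusted p = 0.502 and 0.254), and for LSM4 -0.19 and -0.13 (adjusted p = 0.447 and 0.541). Of the U1 and U2 proteins, SNRPA, SNRPA1 and SNRPB2 were not called (values from -0.49 to -0.22 with FIDAS-5 and from -0.67 to -0.27 with JQ1).

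The LSM family held both the largest fall with JQ1 and the one gene that rose. Of 12 tested members 3 fell with FIDAS-5 (LSM3, LSM5 and LSM14B), and with JQ1 4 fell (LSM2, LSM3, LSM10 and LSM12) and LSM14B rose. These falls are 25% and 33.3% of the family, where 7.6% and 19.4% of all tested genes fell. With JQ1 8.33% of the family rose, where 19% of all tested genes did. The LSM medians were -0.39 and -0.42, the latter -0.20 without JQ1 replicate 3. LSM3, which lies in both the nuclear ring on the U6 RNA and the cytoplasmic ring that promotes decapping (chromosome 3, 14178817 to 14201122), was the most abundant member of the family, at 250.3, 340.0 and 269 TPM in vehicle, 170.5, 151 and 122 under FIDAS-5 and 109.7, 107 and 72.7 under JQ1. The 3 groups formed steps without overlap, with FIDAS-5 nearer to JQ1 than to vehicle. It fell with FIDAS-5 (-0.95, SE 0.21, adjusted p = 0.0123) and with JQ1 (-1.57, SE 0.21, adjusted p = 5.32e-04). The FIDAS-5 call of LSM3 was lost on omitting replicate 3 of FIDAS-5 (adjusted p = 0.0541). Other proteins shared by both rings had these values: LSM2 (-0.40 with FIDAS-5, -0.61 with JQ1, adjusted p = 0.0855 and 0.00967), LSM5 (-0.83 and -0.62, adjusted p = 0.0492 and 0.0838), LSM7 (-0.05 and -0.31, adjusted p = 0.810 and 0.0707) and LSM6 (-0.63 and -0.23, adjusted p = 0.0751 and 0.433). The FIDAS-5 call of LSM5 was lost on omitting any vehicle library, any FIDAS-5 library or replicate 2 of JQ1 (adjusted p = 0.0514 to 0.148). A further loss came with a pseudocount of 0.1, with no filter or with a trend in the moderation (adjusted p = 0.0504 to 0.0887). LSM1, found only in the cytoplasmic ring, and LSM8, found only in the nuclear ring, were not called with either compound (LSM1 0.17 and -0.52, LSM8 -0.19 and 0.09). LSM8 was the least abundant tested member of the family at 2.06 ± 0.0534 TPM in vehicle (SD, n = 3).

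LSM10, which belongs to the U7 particle that trims histone mRNA (chromosome 1, 36393436 to 36397908), was at 10.6, 10.7 and 9.03 TPM in vehicle, 16.0, 13.2 and 13.0 under FIDAS-5 and 4.82, 5.97 and 5.97 under JQ1. The FIDAS-5 libraries were all above vehicle and the JQ1 libraries all below it. The fall with JQ1 was called (-0.75, SE 0.14, adjusted p = 0.00295) and the difference with FIDAS-5 was not (0.44, SE 0.14, adjusted p = 0.0555). With the GC trend removed the FIDAS-5 difference was 0.24 (adjusted p = 0.159). Its adjusted p was 0.0534 to 0.188 with 1 library left out and 0.0336 to 0.164 over the other alternatives for LSM10. LSM11, its partner in the U7 particle, was below the level for testing, at 0.892 ± 0.133 TPM in vehicle (SD, n = 3), 0.499 ± 0.0412 with FIDAS-5 and 0.648 ± 0.167 with JQ1. LSM14B, a relative of LSM14A, which represses translation in cytoplasmic granules (chromosome 20, 62122475 to 62135374), was at 19.1, 18.8 and 16.3 TPM in vehicle, 14.0, 11.7 and 13.2 under FIDAS-5 and 25.3, 25.6 and 21.8 under JQ1. It moved opposite ways and without overlap, lower with FIDAS-5 (-0.45, SE 0.13, adjusted p = 0.0390) and higher with JQ1 (0.41, SE 0.13, adjusted p = 0.0353). Both calls were close to the threshold. The FIDAS-5 call was lost on omitting any vehicle library, any FIDAS-5 library or replicate 1 or 2 of JQ1 (adjusted p = 0.0592 to 0.117). It also missed the threshold with a pseudocount of 0.1, in a fit of only the 6 libraries compared or without both libraries numbered 3 (adjusted p = 0.0519 to 0.0718). The JQ1 call was lost on omitting replicate 2 or 3 of vehicle, replicate 3 of FIDAS-5 or replicate 1 or 2 of JQ1 (adjusted p = 0.0518 to 0.131). In a fit of only the 6 libraries compared, with the GC trend removed or with the block and the GC trend removed, it was lost too (adjusted p = 0.0630 to 0.221). LSM14A itself was not called (-0.51 with FIDAS-5 and -0.32 with JQ1). LSM12, a family member outside the rings, was at 92.0, 108 and 98.2 TPM in vehicle, 83.6, 74.2 and 70.6 under FIDAS-5 and 72.2, 61.8 and 45.1 under JQ1, and it fell with JQ1 (-0.75, SE 0.18, adjusted p = 0.0101).

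**Figure D3:**
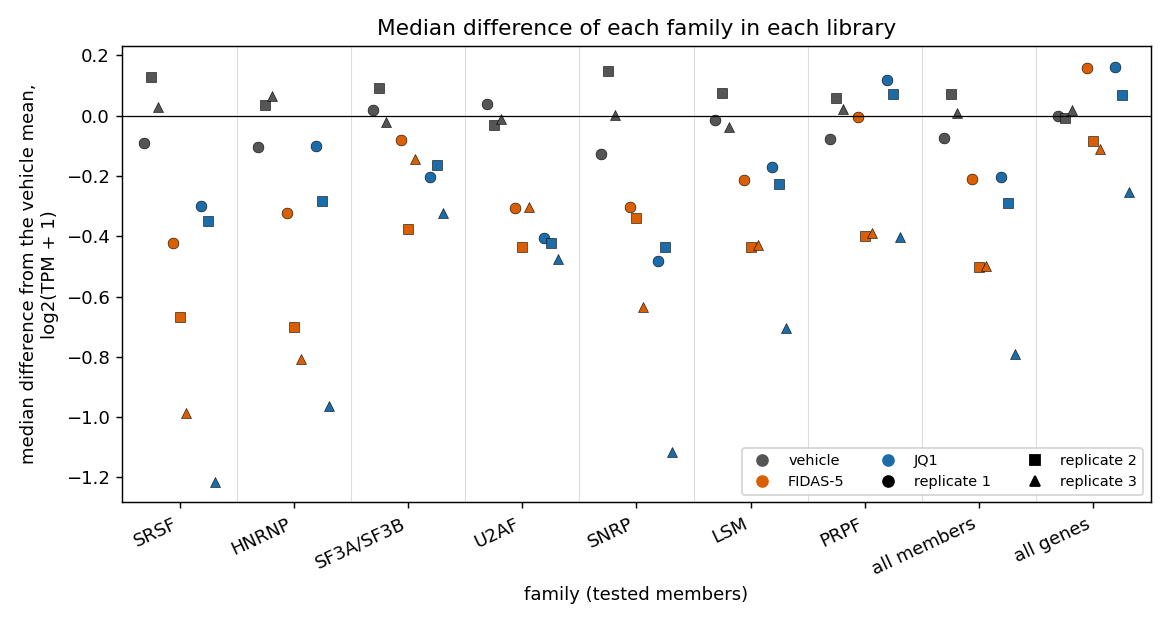
Median difference from the vehicle mean (log2(TPM + 1), y axis) of the tested members of each family, of all 82 members and of all tested genes (x axis), one point per library, by group (colour) and replicate number (marker). The members' medians are -0.21, -0.50 and -0.50 in the FIDAS-5 libraries and -0.20, -0.29 and -0.79 in the JQ1 libraries, those of all genes 0.16, -0.08 and -0.11 and 0.16, 0.07 and -0.25, and the SRSF and SNRP medians of JQ1 replicate 3 lie lowest at -1.21 and -1.12.

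PRPF genes, which serve in the tri-snRNP and the activated spliceosome, had shares of falls near those of all tested genes. With FIDAS-5 1 of 12 fell (8.33%, and 7.6% of all tested genes), and with JQ1 2 fell (16.7%, and 19.4% of all tested genes). The PRPF medians were -0.30 and -0.09, the latter above 0 without JQ1 replicate 3 (0.06), without vehicle replicate 2 (0.02) or with no filter. PRPF19, the ubiquitin ligase at the core of the activating complex and by far the most abundant of the family (chromosome 11, 60890547 to 60906585), was at 229.9, 240.1 and 211 TPM in vehicle, 185, 153 and 175 under FIDAS-5 and 153, 158 and 152 under JQ1. All treated libraries were below vehicle, and it fell with FIDAS-5 (-0.41, SE 0.12, adjusted p = 0.0419) and with JQ1 (-0.55, SE 0.12, adjusted p = 0.00657). The FIDAS-5 call of PRPF19 was lost on omitting any vehicle library, any FIDAS-5 library or replicate 1 or 2 of JQ1 (adjusted p = 0.0565 to 0.121). A further loss came with a pseudocount of 0.1, with median-of-ratios scaling, with scaling to the protein-coding total, with quantile normalization, in a fit of only the 6 libraries compared, with the replicate block or without both libraries numbered 3 (adjusted p = 0.0581 to 0.102). PRPF3, a tri-snRNP protein, was at 9.74, 12.4 and 12.1 TPM in vehicle, 11, 8.60 and 8.33 under FIDAS-5 and 7.73, 8.11 and 4.41 under JQ1. FIDAS-5 overlapped vehicle and JQ1 lay below it (-0.71, SE 0.22, adjusted p = 0.0289). The call of PRPF3 was lost on omitting replicate 2 or 3 of vehicle or replicate 3 of JQ1 (adjusted p = 0.0536 to 0.0887). It also missed the threshold with no filter, in a fit of only the 6 libraries compared or without both libraries numbered 3 (adjusted p = 0.0503 to 0.0557). Its change was -0.47 without JQ1 replicate 3. PRPF8, the large protein that surrounds the catalytic centre, was at 90.3, 55.9 and 66.1 TPM in vehicle, 70.7, 47.2 and 68.9 under FIDAS-5 and 90.1, 88.2 and 91.3 under JQ1. Each compound overlapped vehicle (-0.18, adjusted p = 0.601 with FIDAS-5, and 0.37, adjusted p = 0.197 with JQ1). PRPF6 had values near 0 (-0.01 and 0.01), and PRPF18, a second-step factor and the least abundant tested member of the family at 2.33 ± 0.501 TPM in vehicle (SD, n = 3), had values of 0.24 and 0.34, neither called. PRPF31, another tri-snRNP protein, had values of 0.34 and 0.24, also not called.

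A direct comparison of JQ1 with FIDAS-5 found few differences among the members. HNRNPA0, HNRNPA1P10 and LSM14B were higher with JQ1 (3.66% of members, where 16.4% of all tested genes were higher), and LSM3, LSM10, SNRPB, SNRPC, SNRPF and SRSF8 were lower (7.32%, where 18.5% of all tested genes were lower). The libraries of the 2 groups did not overlap for 9 members with JQ1 higher (22.7% of all tested genes) and for 13 with JQ1 lower (25%). HNRNPA0, a small hnRNP of the A family, was at 26.9, 34.4 and 27.9 TPM in vehicle, 22.0, 17.3 and 21.8 under FIDAS-5 and 43.7, 38.6 and 29.2 under JQ1. Its FIDAS-5 libraries were below vehicle, its JQ1 libraries overlapped vehicle, and the 2 treated groups did not overlap (0.83, SE 0.18, adjusted p = 0.00765). LSM10 had the largest difference among those lower with JQ1 (-1.19, SE 0.14, adjusted p = 2.44e-04), then SNRPC (-0.73, SE 0.16, adjusted p = 0.00653) and SNRPB (-0.69, SE 0.17, adjusted p = 0.0132). SRSF8 (-0.64, SE 0.15, adjusted p = 0.0115), LSM3 (-0.62, SE 0.21, adjusted p = 0.0451) and SNRPF (-0.57, SE 0.15, adjusted p = 0.0186) followed. Among those higher with JQ1, LSM14B differed by 0.86 (adjusted p = 0.00109) and the low pseudogene HNRNPA1P10 by 1.07 (adjusted p = 0.00633). The call of LSM3 was lost on omitting replicate 1 or 3 of vehicle, replicate 1 or 2 of FIDAS-5 or any JQ1 library (adjusted p = 0.0506 to 0.129). With a pseudocount of 0.1, with no filter, in a fit of only the 6 libraries compared or without both libraries numbered 3, it was lost too (adjusted p = 0.0523 to 0.0680). That of SNRPB was lost on omitting replicate 2 of FIDAS-5 (adjusted p = 0.0502). A further loss came without both libraries numbered 3 (adjusted p = 0.0509). That of SNRPF was lost on omitting replicate 3 of FIDAS-5 (adjusted p = 0.0703). It also missed the threshold without both libraries numbered 3 (adjusted p = 0.111). Without JQ1 replicate 3, 14 members were higher with JQ1 and 5 lower, where 23.2% of all tested genes were higher and 16.3% lower. With the GC trend removed 9 were higher and 9 lower, where 25.6% and 26.1% of all tested genes were. The compounds are unrelated and each was given at 1 dose, so these differences compare 2 treatments and not potency. For SRSF1, HNRNPC, HNRNPD and SNRPG the difference between the compounds was -0.18, -0.16, 0.08 and 0.09 in log2 units (SE 0.29, 0.23, 0.17 and 0.20), none called.

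Other genes of the pathway are given from lists drawn up by function. Of 54 tested proteins of the snRNPs and the spliceosome outside the member families, 6 fell with FIDAS-5 (11.1%) and none rose, also at an unadjusted limma p under 0.05. With JQ1 8 fell (14.8%) and 2 rose (3.7%). Over all tested genes 7.6% fell and 12.6% rose with FIDAS-5, and 19.4% fell and 19% rose with JQ1. The medians of this list were -0.22 with FIDAS-5 and -0.16 with JQ1. PPIL1, a prolyl isomerase of the active spliceosome, was at 21.6, 28.0 and 26.7 TPM in vehicle, 18.2, 14.2 and 14.3 under FIDAS-5 and 8.65, 6.17 and 4.94 under JQ1. The groups formed steps without overlap (-1.82, SE 0.20, adjusted p = 2.06e-04 with JQ1). PPIH, a prolyl isomerase of the tri-snRNP, fell by 1.12 with FIDAS-5 and by 1.35 with JQ1 on the log2 scale (adjusted p = 0.00479 and 9.59e-04). PHF5A, a subunit of SF3B that the symbol rule does not take in, was at 49.8, 70.8 and 59.8 TPM in vehicle, 49.7, 43.4 and 40.9 under FIDAS-5 and 26.1, 29.5 and 23.6 under JQ1. It fell with JQ1 (-1.15, SE 0.16, adjusted p = 7.45e-04). SNRNP40, a protein of the U5 particle, fell with both (FIDAS-5 -0.61, adjusted p = 0.0134, JQ1 -0.93, adjusted p = 8.37e-04).

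Genes of snRNP assembly and import fell in 4 of 23 cases with FIDAS-5 (17.4%) and in 9 with JQ1 (39.1%), where 7.6% and 19.4% of all tested genes fell. None rose by limma (1 in each comparison at an unadjusted p under 0.05), where 12.6% and 19% of all tested genes rose. The medians of this list were -0.32 and -0.55. PRMT5, which methylates the arginine-glycine tails, was at 37.9, 47.6 and 41.2 TPM in vehicle, 27.5, 24.0 and 26.1 under FIDAS-5 and 15.9, 18.0 and 15.8 under JQ1. The 3 groups formed steps without overlap, and PRMT5 fell with FIDAS-5 (-0.68, SE 0.13, adjusted p = 0.00665) and with JQ1 (-1.30, SE 0.13, adjusted p = 1.27e-04), more with JQ1 than with FIDAS-5 (-0.61, SE 0.13, adjusted p = 0.00630). WDR77, the partner of PRMT5, was at 59.5, 54.8 and 53.5 TPM in vehicle, 62.5, 45.6 and 51.7 under FIDAS-5 and 29.8, 29.6 and 28.7 under JQ1. FIDAS-5 overlapped vehicle and JQ1 lay far below it (-0.91, SE 0.14, adjusted p = 0.00105). GEMIN6 and GEMIN8, parts of the SMN complex that loads the Sm ring, fell with JQ1 (GEMIN6 -1.49, adjusted p = 3.41e-04, and GEMIN8 -0.89, adjusted p = 6.63e-04). GEMIN2, which holds the Sm proteins before loading, fell with FIDAS-5 (-0.99, adjusted p = 0.0110). The 9 that fell with JQ1 take in SMN1 (-2.21, SE 0.74, adjusted p = 0.0415), at 23.4, 15.9 and 1.49 TPM under JQ1. SMN2 had positive values with FIDAS-5 (1.23) and JQ1 (0.88), neither called, and the split of reads between SMN1 and SMN2 is uncertain. Of 7 tested protein arginine methyltransferases, PRMT1, the main asymmetric enzyme, and PRMT5 fell with both compounds (28.6% in each comparison), and PRMT2 rose with JQ1 (14.3%). The shares of all tested genes were 7.6% fallen with FIDAS-5, and 19.4% fallen and 19% risen with JQ1. PRMT1 was at 112, 122 and 105 TPM in vehicle, 85.7, 77.3 and 78.4 under FIDAS-5 and 59.4, 65.6 and 60.1 under JQ1, again in steps (-0.49, SE 0.12, adjusted p = 0.0184 with FIDAS-5, and -0.86, SE 0.12, adjusted p = 5.91e-04 with JQ1).

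Of 20 tested kinases and partners of SR proteins, 1 rose and 1 fell with FIDAS-5 (5% each), and 3 rose (15%) and 2 fell (10%) with JQ1. All these shares were below those of all tested genes, of which 12.6% rose and 7.6% fell with FIDAS-5. With JQ1 19% of all tested genes rose and 19.4% fell. CLK1 and CLK4, kinases of SR proteins, and SRRM2, a large scaffold of nuclear speckles, rose with JQ1 (CLK1 0.83, adjusted p = 0.0374, CLK4 0.79, adjusted p = 0.0294, and SRRM2 1.39, adjusted p = 0.0183). DYRK1B rose with FIDAS-5 (1.31, adjusted p = 0.00123), and TRA2B, an SR-related activator, fell with both (FIDAS-5 -0.96, adjusted p = 0.0372, JQ1 -1.0, adjusted p = 0.0187). Of 40 other splicing regulators 8 fell (20%) and 1 rose (2.5%) with FIDAS-5, where 7.6% of all tested genes fell and 12.6% rose. With JQ1 8 fell (20%, where 19.4% of all tested genes fell) and 3 rose (7.5%, where 19% of all tested genes rose). RBMX, also known as hnRNP G, was at 125, 143 and 135 TPM in vehicle, 73.2, 55.8 and 61.1 under FIDAS-5 and 75.2, 76.9 and 50.7 under JQ1. Neither compound overlapped vehicle (-1.08, SE 0.18, adjusted p = 0.00392 with FIDAS-5, and -1.0, SE 0.18, adjusted p = 0.00288 with JQ1). CIRBP, a cold-inducible RNA-binding protein, was at 21.0, 25.7 and 20.6 TPM in vehicle, 18.7, 13.8 and 15.4 under FIDAS-5 and 71.1, 75.0 and 63.8 under JQ1. It rose with JQ1 (1.6, SE 0.15, adjusted p = 9.86e-05), as did PCBP2, also called hnRNP E2 (0.91, adjusted p = 0.00467). Of 24 genes of the exon junction complex, decay and export, 4 fell (16.7%) and 2 rose (8.33%) with FIDAS-5. Over all tested genes 7.6% fell and 12.6% rose with FIDAS-5. With JQ1 5 fell (20.8%) and 6 rose (25%), where 19.4% of all tested genes fell and 19% rose. UPF1, the helicase of nonsense-mediated decay, rose with both (FIDAS-5 0.72, adjusted p = 0.0137, JQ1 1.14, adjusted p = 7.45e-04), and MAGOHB, an exon junction protein, fell with both (FIDAS-5 -0.99, adjusted p = 0.00854, JQ1 -1.56, adjusted p = 4.58e-04).

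Members differed in transcript GC content, which moved with the size of change. The median GC content was 46.5% over the 82 tested members and 49.4% over the 12925 tested genes with a value. By family it ran from 44.8% for HNRNP and 45.0% for SRSF to 52.7% for SF3A and SF3B and 57.1% for U2AF. Across the members the fold change with FIDAS-5 rose with GC content (Spearman 0.45, and 0.37 across all genes), less so with JQ1 (0.17, and 0.22 across all genes), over genes measured in the same libraries. Without both libraries numbered 3 the values were 0.29 over the members and 0.27 over all genes with FIDAS-5, and with JQ1 -0.09, opposite in sign, and 0.09. With the GC trend removed the medians of the members were -0.36 and -0.40 and those of all genes 0.01 and -0.01. The HNRNP and SRSF medians with FIDAS-5 were then -0.53 and -0.49, and the SNRP median with JQ1 was -0.54. In that fit 14 of 24 HNRNP and 6 of 11 SRSF genes were called lower with FIDAS-5, as were 15.5% of all tested genes. Of the members named above, SNRPF with FIDAS-5 (-0.27, adjusted p = 0.350) and LSM14B with JQ1 (0.18, adjusted p = 0.221) lost their calls, and no other call of a member against vehicle was lost in this way. SRSF1, HNRNPC and LSM3 kept changes of -1.16, -0.88 and -0.84 with FIDAS-5 and of -1.36, -1.06 and -1.48 with JQ1. Whether GC content has a part in the uncorrected differences was not tested.

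**Figure D4:**
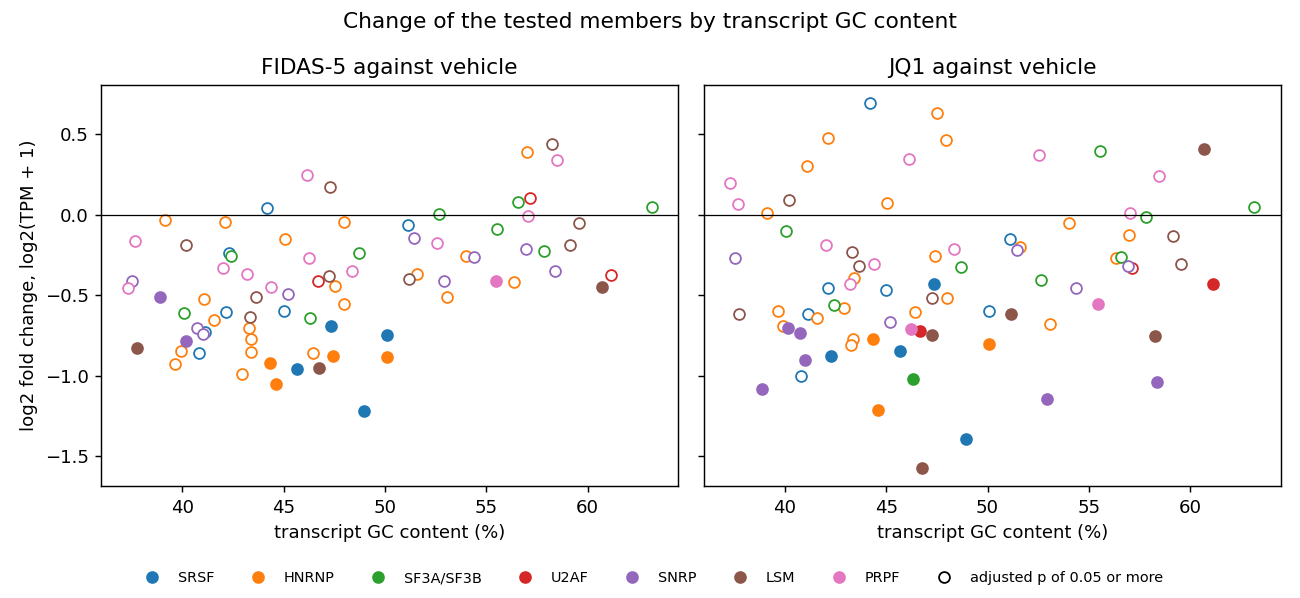
Log2 fold change (log2(TPM + 1), y axis) of the 82 tested members against the GC content of their transcripts (percent, x axis), for FIDAS-5 and JQ1 against vehicle; colours are families and filled points are called. With FIDAS-5 the points rise from left to right (Spearman 0.45), and with JQ1 the slope is smaller (0.17).

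The promoter windows of the 70 members with an entry were searched on both strands for 9 motifs. CCGGAAG was found in 24 of them (34.3%), in 19.2% of 10072 tested genes with an entry and in 10.2% of all 27305 entries. CCAAT was found in 35 (50%), and in 42% and 37% of the wider sets. The GC box of SP1, GGGCGG, was in 62.9% of member windows, 73.4% of tested genes and 46.2% of all entries, and the E box of MYC and MAX, CACGTG, in 10% (7 members), 11.1% and 7.73%. TTTCCCGC (E2F) was in 4.29%, 2.79% and 1.7%, and the motif of ZBTB33 in 4.29%, 0.903% and 0.447%. AAGATGGC (YY1) was in 1.43%, 2.42% and 1.64%, that of NRF1 in 1.43%, 2.38% and 1.28%, and TGACGTCA (CREB) in none of the members, 3.46% and 2.03%. No motif contains another, but matches can overlap, as GGGCGG and GCGGGAAA, the reverse of the E2F motif, do where both are read in 1 run of bases. Of the 24 members with CCGGAAG, 8 fell with JQ1 (HNRNPD, SF3A3, SNRPB, SNRPC, SNRPE, SNRPG, SRSF4 and U2AF2) and 4 with FIDAS-5 (HNRNPD, LSM5, SNRPG and SRSF4), and of the 46 without it 11 and 7 fell. For CCAAT the split with JQ1 went the other way. Of the 35 members with CCAAT 6 fell with JQ1 and 6 with FIDAS-5, and of the 35 without it 13 and 5 fell. A match is a string of letters in this window and is not evidence of binding.

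The 11 members below the level for testing were LSM11, PRPF40B, SRSF12, U2AF1L5, SNRPD2P2, HNRNPA3P1, HNRNPKP3 and HNRNPCL1 to HNRNPCL4. SRSF12, an SR protein found in few tissues, was at 0.778, 0.759 and 1.02 TPM in vehicle, 0.836, 0.651 and 0.526 under FIDAS-5 and 0.975, 0.835 and 0.584 under JQ1. PRPF40B, a factor that associates with the U1 particle, was at 0.532, 0.384 and 0.316 TPM in vehicle, 0.444, 0.214 and 0.297 under FIDAS-5 and 0.298, 0.367 and 0.577 under JQ1. Both lay within overlapping ranges. The pseudogenes SNRPD2P2 and HNRNPKP3 and the HNRNPC-like genes HNRNPCL2 and HNRNPCL4 were listed at 0 in every library, and HNRNPCL1, HNRNPCL3 and HNRNPA3P1 did not exceed 0.123 TPM. HNRNPUL2-BSCL2, a readthrough of HNRNPUL2 into its neighbour, was tested at 1.26, 0.937 and 1.54 TPM in vehicle, 1.07, 2.12 and 2.85 under FIDAS-5 and 1.6, 0.585 and 1.06 under JQ1, shares sequence with HNRNPUL2 and was not called. The strand setting of the quantification is not given in the sources used here, so reads of antisense genes cannot be told apart from those of members.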

How the data were processed

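RNA of Huh7 cells was measured in 9 libraries, 3 per group. The authors deposited 1 table of TPM per gene symbol, made with Salmon against hg38, per the submitters' processing notes; the Salmon version and annotation are not given in the sources used here. TPM has no counts and no depth, so no intervals were computed.

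Values were transformed to log2(TPM + 1). The 13573 genes that reached 1 TPM in 3 or more libraries were fitted together over the 9 libraries (limma 3.58.1, R 4.3.3; 6 residual and 2.86 prior degrees of freedom, two-sided, Benjamini-Hochberg adjustment over all tested genes). The code was tested on simulated data. All 93 members matched RefSeq (GRCh38.p14), the source of coordinates and promoters; GC content is the median over GENCODE transcripts, and removing its lowess trend used 12925 genes. Figures used Python 3.11.15 and matplotlib 3.10.9.

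Named genes were up to 4 called members per family, direction and comparison with the smallest adjusted p, the most and least abundant members in vehicle, SNRPB, SNRPD1, SNRPD3, LSM4, SF3B1, U2AF1, and up to 3 called genes per list and direction; others describe ranges, and not all that qualified are printed. The values of 1 tested member enter the counts and are not reported singly here. Members and lists were chosen with earlier results of these data known. Of 209 genes in the lists 208 were found. Alternatives were a pseudocount of 0.1, no filter, a minimum of 5 TPM, median-of-ratios, protein-coding total and quantile scaling, only the 6 libraries compared, a replicate block, a trend in the moderation, a GC trend removed, both together, and each library left out.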

Additional observations from a re-analysis of the deposited data

How the results depend on the processing

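Counts are of members that fell and rose against vehicle, or were lower and higher with JQ1 than with FIDAS-5. Brackets give the share of all tested genes called the same way. With FIDAS-5 14 fell (7.6%) and none rose (12.6%). With a pseudocount of 0.1 8 fell (7.15%), with median-of-ratios scaling 27 (11%) and with the protein-coding total 22 (9.73%). Quantile normalization gave 31 (12.9%), the GC trend removed 31 (15.5%) and the replicate block with the GC trend removed 37 (16.8%). With no filter 1 rose (8.33%), with the protein-coding total 1 (16.1%) and with the GC trend removed 1 (18.4%). With JQ1 22 fell (19.4%) and 1 rose (19%). With median-of-ratios scaling 34 fell (23.1%), with the GC trend removed 42 (27.6%) and with the block and the GC trend removed 44 (29%). With the median-of-ratios, protein-coding total and quantile scalings 4 rose each (22, 20.6 and 22.6%), and none in a fit of only the 6 libraries compared (16.3%). With the GC trend removed 6 rose without the block (26.5%) and 6 with it (28%). Without both libraries numbered 3, an alternative chosen after seeing the data, 6 rose (23.5%). Between the compounds 3 were higher (16.4%) and 6 lower (18.5%). With median-of-ratios scaling 6 were higher (19.8%), with quantile normalization 8 (22.4%) and with the GC trend removed 9 (25.6%). With the block and the GC trend removed 10 were higher (27.3%), and without both libraries numbered 3 7 were (17.3%). With the protein-coding total 11 were lower (23.3%) and with the block and the GC trend removed 13 (27.4%). Leaving out 1 library gave 2 to 29 lower and 0 to 0 higher with FIDAS-5, and 16 to 26 lower and 0 to 5 higher with JQ1. Between the compounds it gave 4 to 8 lower and 3 to 14 higher. The 29, 5 and 14 came without JQ1 replicate 3 (10.9, 22.2 and 23.2%). The replicate number as a block gave 15 lower (8.37%) and 0 higher with FIDAS-5, and 26 lower (20.7%) and 2 higher (20.1%) with JQ1. Between the compounds the block gave 6 lower (19.2%) and 5 higher (18.1%). Same-numbered libraries did not all deviate together. Between vehicle and either compound, correlations of their deviations ran from -0.08 to 0.16, and those of unlike-numbered libraries from -0.14 to 0.1. Between FIDAS-5 and JQ1 they were 0.26, 0.1 and 0.42 for the libraries numbered 1, 2 and 3. Unlike-numbered libraries of these compounds had -0.35 to 0.18. The numbers were not taken to pair the samples in the main fit, and whether they do was not tested. No called member changed direction in an alternative; 156 values of named members lost a call, 16 gained one and 1084 stayed on their side. The median of the members between the compounds was 0.05 and ran from -0.08 to 0.24 with 1 library left out. It was below 0 without FIDAS-5 replicate 3 (-0.04), JQ1 replicate 1 (-0.08) or JQ1 replicate 2 (-0.03) and with the protein-coding total (-0.02), 0.24 without JQ1 replicate 3, 0.16 without FIDAS-5 replicate 1, and 0.18 without both libraries numbered 3. The cause of these changes was not tested, and without counts the part of depth cannot be given.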
